A study of Mus musculus with 10 samples.

Results

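The 10 genes described here carry the WNT signal inside the cell or limit it: Tcf7l1, Tcf7, Lef1, Ctnnb1, Axin2, Gsk3b, Apc, Lrp6, Fzd7 and Sp5. They were chosen by name for their place in the pathway, and all 10 were found among the 21631 protein-coding genes of the RefSeq table. Peaks of HA-tagged SOX15 and SOX2 in mouse embryonic stem cells were assigned to a gene when the summit lay within 50 kb of the gene body. The ChIP-seq libraries comprised 3 of SOX15-HA and 2 of SOX2-HA, each factor tagged from its own knock-in locus, with 5 input libraries that were not analysed here. The cells of every group grew in 2i/LIF, a medium with a GSK3 inhibitor and a MEK inhibitor, and were fixed for 5 min in 1% formaldehyde. No group without the GSK3 inhibitor was measured, so these data describe only cells under GSK3 inhibition, with MEK inhibited and LIF present. The labels name no clone or strain. Nothing in them ties a replicate to a culture of its own, so spread between replicates may be technical.

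WNT ligands bind Frizzled receptors such as FZD7 together with the co-receptor LRP6, and this stops a destruction complex built on APC and AXIN proteins from marking beta-catenin for degradation. In that complex GSK3B, with its relative GSK3A, phosphorylates beta-catenin, which is the step that the inhibitor in 2i blocks. Beta-catenin (Ctnnb1) then enters the nucleus and works through the HMG-box proteins TCF7L1, TCF7 and LEF1. In mouse embryonic stem cells TCF7L1 is known mainly as a repressor whose repression beta-catenin relieves, while TCF7 and LEF1 act mainly as activators. Axin2 and Sp5 are widely used as direct targets of the pathway, and AXIN2 feeds back on it by helping to degrade beta-catenin. SOX2 and SOX15 also bind DNA through an HMG box.

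SOX15 libraries had no peak near these genes, and SOX2 libraries had peaks near most of them in 1 replicate and few in the other. Of the 10 genes, 0, 0 and 0 had a peak in SOX15 replicates 1, 2 and 3, against 3 and 8 in SOX2 replicates 1 and 2. The means were 0 for SOX15 (n = 3, the value in each library) and 5.5 ± 3.54 for SOX2 (SD, n = 2). Among all protein-coding genes 2.29%, 5.78% and 4.26% had a peak in SOX15 replicates 1, 2 and 3, and 15.5% and 24.9% in SOX2 replicates 1 and 2. A count of 0 of 10 is therefore close to what the short SOX15 lists give at any gene. A peak of any SOX15 library lay near 8.11% of all genes and near none of the 10, and a peak of any SOX2 library lay near 26.0% of all genes and near 8 of the 10.

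Tcf7l1, Tcf7 and Fzd7 had a region that both SOX2 libraries called. A region was called reproducible when peaks of at least 2 SOX15 libraries, or of both SOX2 libraries, overlapped by 1 bp or more. By that rule 0 of the 10 genes had a reproducible SOX15 region, against 2.26% of all protein-coding genes. A reproducible SOX2 region lay near 3 of the 10, against 14.2% of all protein-coding genes. Near Lef1, Axin2, Gsk3b, Lrp6 and Sp5 the peaks belonged to SOX2 replicate 2 alone, and Ctnnb1 and Apc had no peak in the 5 libraries.

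**Figure D1:**
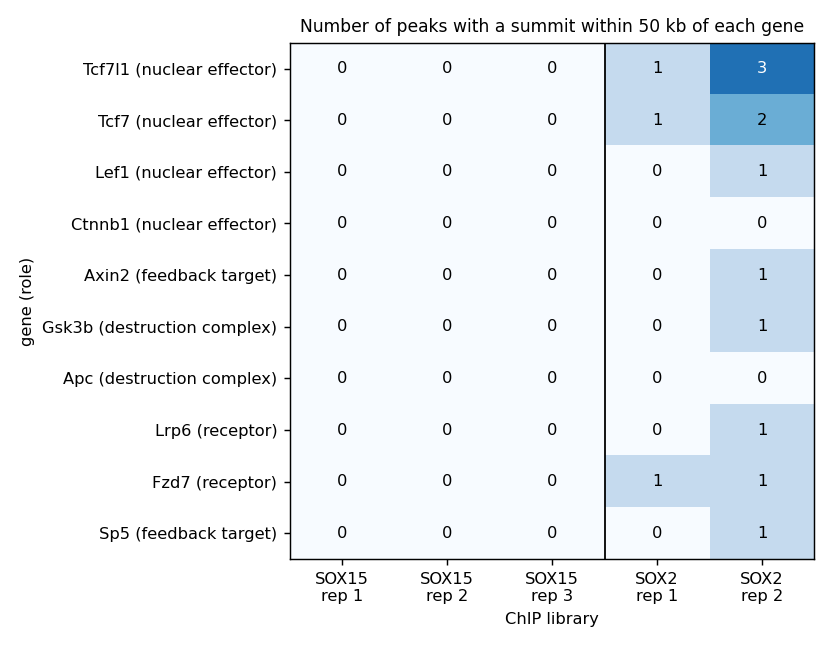
Number of peaks with a summit within 50 kb of each gene (rows, with the role of the gene) in each ChIP library (columns, SOX15 left of SOX2). The SOX15 columns are 0 throughout, SOX2 replicate 1 has 1 peak each at Tcf7l1, Tcf7 and Fzd7, and SOX2 replicate 2 has peaks at 8 of the 10 genes.

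Long genes have wide windows, and most of these genes are long. The median gene length was 69.4 kb for the 10 genes, with a range of 2.8 to 163 kb, and 17.3 kb for all protein-coding genes. Per megabase of window, SOX2 replicate 1 had 1.7 peaks at the 10 genes and 1.51 over all genes, which are close. SOX2 replicate 2 had 6.25 peaks per megabase at the 10 genes and 2.44 over all genes. At 91 other WNT pathway genes, described below, the values were 2.98 and 4.62 in SOX2 replicates 1 and 2. Of the 11 peaks of SOX2 replicate 2 at the 10 genes, 8 were not called in replicate 1. A peak that lies in several windows is counted in each of them. The number of peaks per gene was compared between the factors by a two-sided exact permutation test over the 5 libraries, which cannot go below p = 0.1. Tcf7l1, Tcf7 and Fzd7 reached that value, as did 2582 genes in all (adjusted p = 0.838 over all genes, exact permutation test). Lef1, Axin2, Gsk3b, Lrp6 and Sp5 had an exact p of 0.4, and Ctnnb1 and Apc an exact p of 1. No gene passed an adjusted p of 0.05 or an unadjusted p of 0.05 in this exact test, which a design of this size does not allow.

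None of the summits lay in a listed promoter of these genes. RefSeq promoters of 300 bases (250 before and 50 after a start site, build GRCm38.p6) were at hand for 8 of the 10 genes, 13 promoters in all, and 0 of the 13 contained a summit of any library. The start sites listed for Tcf7 and Axin2 all lie inside the gene body. Sequence at the 5′ end of these genes was therefore not searched. TCF and LEF proteins recognise a core written here as CTTTGA or CTTTGT, searched on both strands. One or more of these words stood in 5 of the 13 promoters (38.5%), 1 each of Tcf7l1, Lef1, Gsk3b, Fzd7 and Sp5. Of 32851 mouse promoters of the same length 31.2% held one, so the share by promoter is near the background. The 13 are not separate units, because windows of Lef1 and of Ctnnb1 overlap. By gene, 5 of the 8 had a word, and no background share by gene was computed. The SOX words CATTGT and AACAAT, which 18.7% of promoters hold, were found in 1 promoter of Lef1, and the octamer part ATGCAAA, which 4.63% hold, in none of the 13. No SOX word overlapped a TCF/LEF word. The promoters printed here are those of Tcf7l1, Tcf7 and Fzd7, which have a SOX2 region in both libraries elsewhere in their window, and the promoters of Sp5 and Lef1 with the most TCF/LEF words. Capitals mark the words CTTTGA and CTTTGT or their reverse complements, and each line runs 5′ to 3′ on the strand of the gene.
Tcf7l1, chr6:72788996-72789295, minus strand: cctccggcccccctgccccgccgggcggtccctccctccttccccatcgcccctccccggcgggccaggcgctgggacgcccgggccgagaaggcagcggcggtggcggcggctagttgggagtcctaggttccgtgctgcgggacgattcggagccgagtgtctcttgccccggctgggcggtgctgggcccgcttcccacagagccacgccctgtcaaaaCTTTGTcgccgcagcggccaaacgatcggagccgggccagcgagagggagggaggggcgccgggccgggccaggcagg
Tcf7 (the more upstream of 2 start sites, neither with a TCF/LEF word), chr11:52282965-52283264, minus strand: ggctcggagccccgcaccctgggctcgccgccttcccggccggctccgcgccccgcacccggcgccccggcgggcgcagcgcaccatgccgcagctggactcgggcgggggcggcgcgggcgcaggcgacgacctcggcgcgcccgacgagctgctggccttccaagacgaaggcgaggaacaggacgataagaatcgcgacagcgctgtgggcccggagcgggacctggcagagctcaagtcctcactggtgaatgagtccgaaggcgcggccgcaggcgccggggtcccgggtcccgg
Fzd7, chr1:59481897-59482196, plus strand: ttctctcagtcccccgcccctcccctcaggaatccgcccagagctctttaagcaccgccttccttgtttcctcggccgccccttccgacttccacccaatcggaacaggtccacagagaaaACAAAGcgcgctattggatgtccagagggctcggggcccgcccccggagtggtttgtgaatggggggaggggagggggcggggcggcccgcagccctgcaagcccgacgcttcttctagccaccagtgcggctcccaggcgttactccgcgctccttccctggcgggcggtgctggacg
Sp5, chr2:70474673-70474972, plus strand: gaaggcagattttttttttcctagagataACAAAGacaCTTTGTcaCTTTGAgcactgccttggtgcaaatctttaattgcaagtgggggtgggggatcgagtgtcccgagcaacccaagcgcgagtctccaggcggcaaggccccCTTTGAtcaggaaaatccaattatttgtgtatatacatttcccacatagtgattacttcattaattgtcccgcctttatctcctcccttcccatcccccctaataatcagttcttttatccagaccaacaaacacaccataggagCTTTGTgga
Lef1 (a start site inside the gene), chr3:131156044-131156343, plus strand: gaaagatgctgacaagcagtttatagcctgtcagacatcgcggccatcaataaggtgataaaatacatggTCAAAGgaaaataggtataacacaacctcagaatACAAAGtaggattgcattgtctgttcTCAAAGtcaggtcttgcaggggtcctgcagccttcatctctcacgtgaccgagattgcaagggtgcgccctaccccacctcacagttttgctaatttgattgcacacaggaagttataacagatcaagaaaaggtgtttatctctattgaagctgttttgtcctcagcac

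The promoter of Sp5 held the most, with 5 TCF/LEF words, and 12 of the 32851 promoters (0.0365%) held 5 or more. The internal promoter of Lef1 held 3, and 1.14% of promoters held 3 or more. Tcf7l1 and Fzd7 held 1 each, and both listed promoters of Tcf7, which start inside the gene, held 0. The promoter of Sp5 was 45.0% GC and that of Tcf7l1 75.3% GC. Sp5 is given here as the highest of the 13 promoters, and the background promoters were not matched for GC. Its background share is therefore not a chance level. A match of 6 letters describes the sequence and is not a measured site.

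**Figure D2:**
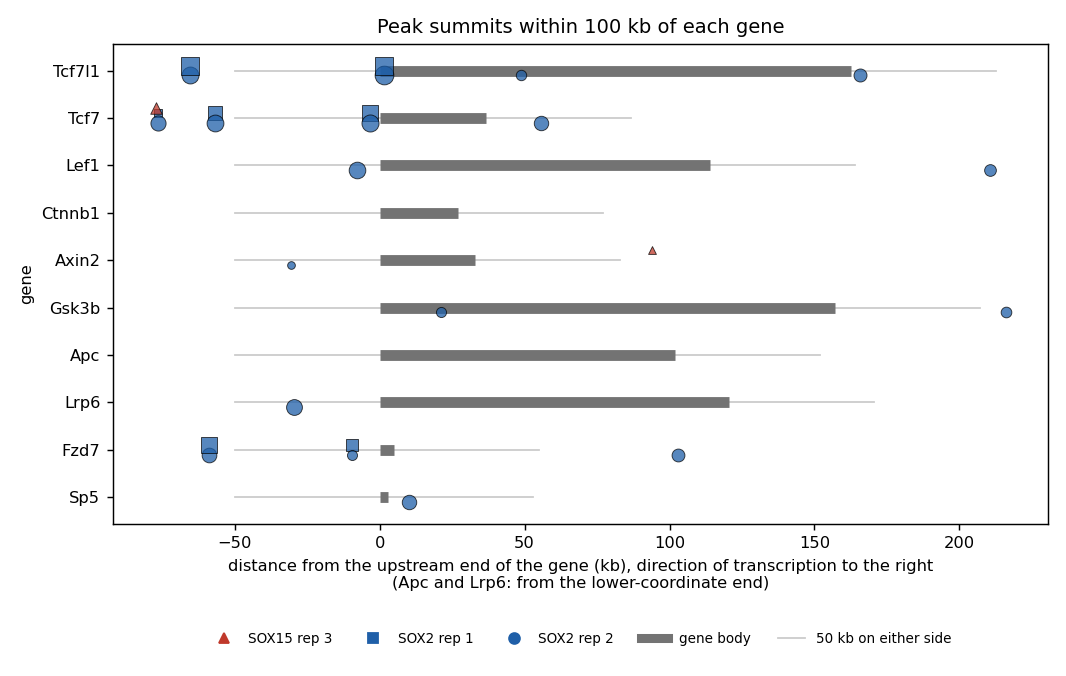
Summits within 100 kb of each gene, placed by distance from the upstream end of the gene in kb (for Apc and Lrp6, from the lower-coordinate end), with the gene body as a grey bar and the 50 kb on either side as a thin line; markers give the library and grow with the percentile rank of the fold in its list. The largest markers inside a window are the pair of SOX2 summits at the start of Tcf7l1, and the SOX15 replicate 3 summits near Tcf7 and Axin2 lie outside the 50 kb window.

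Among the nuclear effectors, Tcf7l1 carried the strongest SOX2 peak of the 10 genes. The gene spans chromosome 6 from 72626371 to 72789045 on the minus strand. The SOX15 lists had no peak within 50 kb, and their nearest summits were 7960, 195 and 168 kb from the gene in replicates 1, 2 and 3. Inside the gene, from 72787291 to 72787866, the deposited fold enrichment (a linear ratio over background, comparable only within a list) was 25.9 in SOX2 replicate 1 and 44.0 in replicate 2. The SOX2 summits lay 1491 bp (replicate 1) and 1497 bp (replicate 2) downstream of the start site, 6 bp apart and past the promoter printed above. In the list of replicate 1 this peak ranked 78 of 2676 by fold, and in replicate 2 it ranked 15 of 4817. Both libraries therefore placed it in the top few percent of their lists, at percentiles 97.1 and 99.7.

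At SOX2 regions as strong as that of Tcf7l1, SOX15 replicate 3 often had a peak. By the mean percentile of fold in the SOX2 libraries the Tcf7l1 region ranked 35 of the 2369 reproducible SOX2 regions. Of the 35 regions at or above it, 1 carried a peak of SOX15 replicate 1, 1 a peak of replicate 2 and 22 (62.9%) a peak of replicate 3. Tcf7l1 was among the 13 with no SOX15 peak. Over all 2369 regions 7.81% carried a peak of SOX15 replicate 3. The SOX15 lists give no value for a locus without a peak, so SOX15 signal under the caller's threshold was not measured here.

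Tcf7l1 had further SOX2 peaks in replicate 2 alone. One lay inside the gene, 48.6 kb downstream of the start site, with a fold of 5.99 (percentile 17.1), and one 3.15 kb beyond the far end of the gene with a fold of 7.32 (percentile 37.8). Both were far below the peak near the start. Outside the window, 65.5 kb upstream in the gene Kcmf1, both SOX2 libraries had a peak, with folds of 13.7 and 12.3 in replicates 1 and 2.

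Tcf7, the gene of an activating TCF, had its SOX2 region just upstream. The gene spans chromosome 11 from 52246527 to 52283383 on the minus strand, and the region runs from 52286378 to 52286756. SOX15 libraries had no peak within 50 kb. The fold was 10.1 in SOX2 replicate 1 and 12.9 in replicate 2, at percentiles 66.9 and 79.2, with summits 10 bp apart. They lay 3.19 and 3.2 kb from the edge of the gene body. SOX2 replicate 2 alone had a second peak, with a fold of 8.44, 18.9 kb beyond the other end of Tcf7, and the nearest protein-coding gene to it was Skp1, a subunit of ubiquitin ligases, at 2.88 kb.

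More distant sites upstream of Tcf7 fell just outside the window. At 56.9 kb both SOX2 libraries had a peak, with folds of 8.85 and 12.1 in replicates 1 and 2, and at 76.5 kb and 76.6 kb they had folds of 4.08 and 9.2. These sites are nearer to Vdac1, the gene of a mitochondrial outer membrane channel, than to Tcf7. SOX15 replicate 3 had a peak at 77.3 kb, 185 bp from Vdac1, with a fold of 5.36, and it did not overlap the SOX2 peaks. That peak was one of only 2 SOX15 peaks within 100 kb of any of the 10 genes.

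Lef1, the gene of another activating HMG-box effector, had a peak in SOX2 replicate 2 alone. It lay 7.88 kb upstream of the first start site (chromosome 3, 131102289 to 131102632) with a fold of 11.6, at percentile 74.5 of that list and close to the long noncoding RNA gene Gm36603. The nearest summit of SOX2 replicate 1 was 1540 kb away, so that list held nothing in the region. Ctnnb1, the gene of beta-catenin itself (chromosome 9, 120933400 to 120960507), had no peak within 50 kb. Its nearest summits were 800 kb away in SOX15 replicate 3, and 654 and 243 kb away in SOX2 replicates 1 and 2.

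The receptor gene Fzd7 had the third reproducible SOX2 region and no SOX15 peak within 50 kb. It lay upstream of the gene (chromosome 1, 59472508 to 59472955), with folds of 7.25 in SOX2 replicate 1 and 5.78 in replicate 2. The summits were 15 bp apart, 9.39 and 9.38 kb before the start site. These were weak peaks of their lists, at percentiles 35.0 and 14.4, and the region ranked 2165 of 2369 reproducible SOX2 regions. Fzd7 is a short gene of 4.81 kb (59482147 to 59486955), and no other protein-coding gene was nearer to these summits. Outside the window, 58.8 kb upstream and with Fzd7 still the nearest protein-coding gene, both SOX2 libraries had a stronger peak, with folds of 10.0 and 8.73 in replicates 1 and 2.

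Lrp6, the co-receptor gene (chromosome 6, 134446476 to 134566913), had 1 peak, in SOX2 replicate 2. Its fold was 9.99, at percentile 65.3, and it lay 29.7 kb from the lower-coordinate end of Lrp6, inside the gene Bcl2l14. When a peak was given to the nearest protein-coding gene alone, Lrp6 had none.

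Of the destruction complex, Gsk3b had a weak peak and Apc none. Inside Gsk3b, the gene of the kinase that 2i inhibits (chromosome 16, 38089001 to 38246084), SOX2 replicate 2 had a peak 21.1 kb downstream of the start site with a fold of 5.81, at percentile 14.9. A peak with a fold of 6.07 lay 59.0 kb beyond the gene, in Maats1, also in SOX2 replicate 2 alone. Around Apc, the scaffold gene (chromosome 18, 34220297 to 34322190), the nearest summits were 423, 227 and 424 kb away in SOX15 replicates 1, 2 and 3, and 188 kb away in each SOX2 library.

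The feedback targets had single peaks of SOX2 replicate 2. Near Sp5, the gene of a zinc-finger transcription factor (chromosome 2, 70474923 to 70477726), the peak lay 7.33 kb beyond the end of the gene (70484821 to 70485232), with a fold of 8.48 at percentile 51.5. It was 10.1 kb downstream of the start site whose promoter holds the 5 TCF/LEF words. Near Axin2 (chromosome 11, 108917828 to 108950783) the peak lay 30.7 kb before the gene, with a fold of 3.58 at percentile 0.27. It ranked 4805 of 4817 in its list, and Cep112 was nearer to it. On the other side of Axin2, 61.1 kb beyond the gene, SOX15 replicate 3 had a peak with a fold of 1.75, which ranked 434 of 437.

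**Figure D3:**
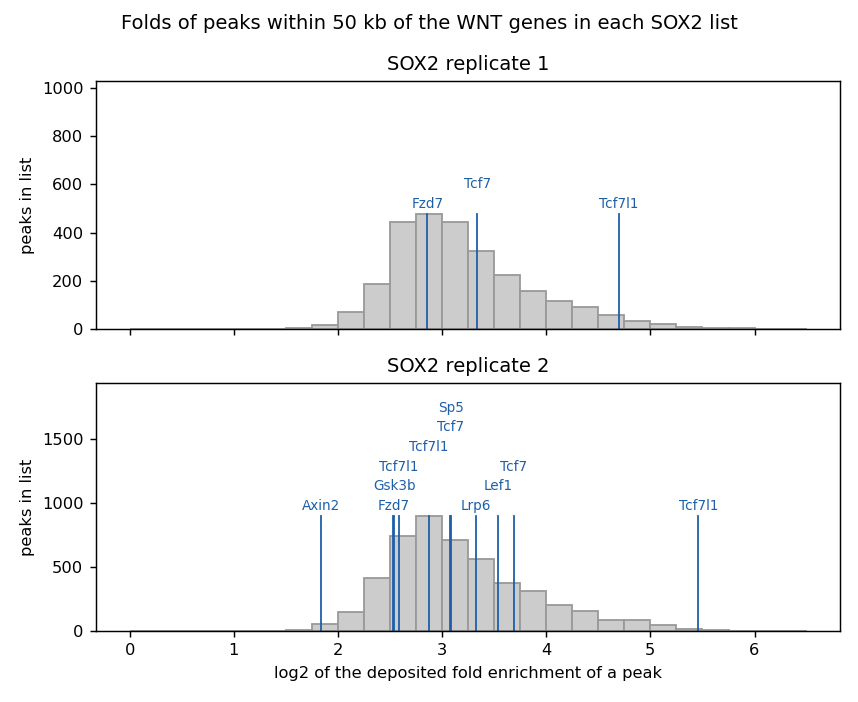
Number of peaks by log2 of the deposited fold enrichment in each SOX2 list (grey bars), with lines for the peaks within 50 kb of the named genes. The Tcf7l1 peak near the start site lies far to the right in both lists and Axin2 far to the left in replicate 2. The other lines, with the further Tcf7l1 peaks of replicate 2 among them, fall within the bulk of the lists.

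The SOX2 peaks of these genes ran from percentile 0.27 to 99.7 of fold in replicate 2, and from 35.0 to 97.1 in replicate 1. In SOX2 replicate 1 the 3 peaks had folds of 7.25, 10.1 and 25.9. In replicate 2 the 11 peaks ranged from 3.58 to 44.0 with a median of 8.44, and their median percentile was 51.2, close to the middle of the list. Peak widths were 334 to 426 bp in replicate 1 and 242 to 576 bp in replicate 2, the widest being that of Tcf7l1. Of the peaks, 1 of 3 in replicate 1 and 3 of 11 in replicate 2 lay inside the gene body. For 3 of 3 and 8 of 11 the nearest protein-coding gene was the WNT gene itself.

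Whether a peak of SOX2 replicate 2 was also called in replicate 1 went with its fold across the whole list. Of all replicate 2 peaks 21.8%, 28.4%, 56.1% and 90.5% overlapped a replicate 1 peak, for percentiles 0 to 25, 25 to 50, 50 to 75 and 75 to 100 of fold. Of the WNT gene peaks, 1 of 4, 0 of 1, 0 of 4 and 2 of 2 did in the same bins. The peaks at Lef1, Lrp6 and Sp5 and the second peak at Tcf7 were the 4 between percentiles 50 and 75, and replicate 1 had none of them. SOX2 replicate 1 is the shorter list, and the part of list length or depth in these differences was not tested.

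The wider WNT pathway was read from a list of 91 other genes, ordered by role. Reproducible SOX15 regions lay near 4 of the 91 (4.4%, against 2.26% of all protein-coding genes), and reproducible SOX2 regions near 29 (31.9%, against 14.2%). The 29 genes rest on 35 distinct SOX2 regions, and neighbouring genes share some of them. By role, SOX2 regions lay near 6 of 21 genes of ligands and their secretion, 8 of 22 receptor and R-spondin genes, 4 of 14 secreted inhibitors, 2 of 13 genes of the cytoplasmic relay, 4 of 12 other nuclear effectors and corepressors, and 5 of 9 genes known as targets of TCF7L1 or beta-catenin. The role groups hold few genes, so no ranking of roles is drawn from these shares. Some regions lie nearer to genes outside the list. In the cytoplasmic relay, the region near Dvl3 is nearer to Eif2b5 and that near Nkd2 lies in Slc12a7. Among the ligands, Wnt1 and Wnt10b share a region inside Arf3. The 5 targets with a SOX2 region were Esrrb, Nanog, Klf2, Tfcp2l1 and Myc, while Cdx1, Cdx2, T and Ccnd1 had none. Of these, Esrrb, Nanog and Tfcp2l1 are also counted among the naive stem cell genes checked below. The list was chosen with earlier results of these data known, and these shares were not tested.

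The 4 genes with a reproducible SOX15 region included 3 known targets of the pathway, with Cdx1 counted through a region inside Pdgfrb. In Esrrb, a naive pluripotency factor under TCF7L1 repression, the SOX15 region (chromosome 12, 86502708 to 86503656) had folds of 7.67 and 6.27 in replicates 1 and 2. SOX15 replicate 3 had 2 peaks within 50 kb of Esrrb, with a best fold of 6.47, but none in that region. The strongest SOX2 region in the gene (86501394 to 86502158) did not overlap it and had folds of 38.1 and 35.6 in SOX2 replicates 1 and 2. At Tfcp2l1, another naive factor, the SOX15 region lay at the gene's edge (chromosome 1, 118627840 to 118628186) with folds of 6.9 and 10.4 in replicates 2 and 3. The strongest SOX2 region there lay 2.29 kb from the gene, with folds of 21.9 and 21.2. Near Cdx1 and Bcl9l the SOX15 regions were nearer to other genes, Pdgfrb (29.1 kb from Cdx1) and Foxr1 (49.9 kb from Bcl9l), and neither had a reproducible SOX2 region within 50 kb.

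After Esrrb, the strongest reproducible SOX2 regions in the list were near Klf2, Tfcp2l1, Bcl9, Myc, Lgr5, Fzd2, Notum, Porcn, Tle1, Wnt10a and Wnt6. Near Klf2, a naive pluripotency gene, SOX15 replicate 2 alone had a peak (fold 3.28), and the folds were 23.4 and 25.6 in SOX2 replicates 1 and 2. That SOX2 region lay 12.7 kb from Klf2 and nearer to Eps15l1, at 6.54 kb. Near Bcl9, whose protein joins beta-catenin to PYGO proteins, the SOX2 folds were 15.7 and 24.8, with the region 44.0 kb from the gene and inside Acp6. Near Myc, a target of the pathway in several tissues, they were 16.6 and 20.5.

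Genes that act on receptors or on the ligand made up most of the remainder. In Lgr5, an R-spondin receptor gene, SOX15 replicate 2 had a peak within 50 kb (fold 4.97), and the SOX2 folds were 19.8 and 16.4. Near Fzd2 they were 14.4 and 20.3. Near Notum, the gene of an enzyme that inactivates WNT ligands, they were 12.8 and 21.8. Near Porcn, whose enzyme acylates WNT ligands for secretion, the region lay 0.738 kb from the gene at a mean percentile of 85.5. In Tle1, a corepressor partner of TCF proteins, the folds were 13.1 and 16.9. Wnt10a and Wnt6 share 1 region, with folds of 10.0 and 28.9. All these regions ranked lower than that of Tcf7l1 by mean percentile except the one in Esrrb, at 99.4 against 98.4 for Tcf7l1.

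**Figure D4:**
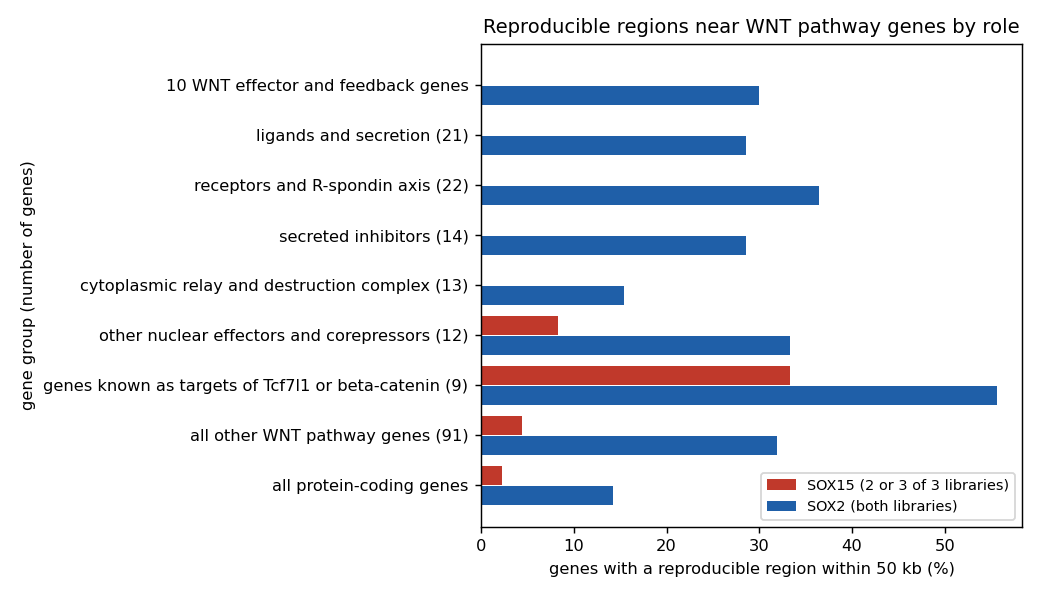
Share of genes with a reproducible region within 50 kb, in percent, for the 10 WNT effector and feedback genes, the other WNT pathway genes by role (number of genes in brackets) and all protein-coding genes, SOX15 above SOX2 in each pair of bars. The 10 genes have 0% for SOX15 and 30.0% for SOX2, and the known targets have the longest bars for both factors, 33.3% and 55.6%. Those targets include the naive pluripotency genes Esrrb, Nanog, Klf2 and Tfcp2l1.

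The labelled cell type was checked at its own genes. Of 7 naive stem cell genes 3 had a reproducible SOX15 region and 7 a reproducible SOX2 region within 50 kb, against 2.26% and 14.2% of all protein-coding genes. Of 9 marker genes of other cell types 0 had either, which is close to what those shares give for 9 genes. The lists held 217, 672 and 437 peaks for SOX15 replicates 1, 2 and 3, and 2676 and 4817 for SOX2 replicates 1 and 2. They give no read counts, so depth is unknown. Expression was not measured in these samples.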

How the data were processed

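Each ChIP library has 1 peak list, so peaks were called per sample. Per the submitters' processing notes, which give no versions, Bowtie2, MACS2 and deepTools were used with build mm10; peak-calling settings and controls are not given in the sources used here. Per the column order of the deposited files, the authors gave each peak a fold enrichment (a linear ratio), p and q as −log10 p-value and −log10 q-value, a summit offset and an integer score that equals 10 times −log10 q rounded down. Folds were ranked within a list only.

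Gene positions were those of RefSeq on GRCm38.p6, the same coordinates as mm10; 21631 protein-coding genes on 20 chromosomes were used, and strands and start sites came from the RefSeq promoter table. Peaks of 1 factor were merged at 1 bp of overlap. Counting was tested on simulated data with planted peaks. The genes, lists and tests were chosen with earlier results of these data known. All 10 genes are named; other WNT genes are named when they have a reproducible SOX15 region, or are among the 12 highest by mean SOX2 percentile. Single genes were compared by an exact permutation test with Benjamini-Hochberg adjustment over all genes; regions and genes are not replicates. Python 3.11.15, numpy 2.4.6, pandas 2.3.3 and matplotlib 3.10.9 were used. Alternatives were other distances (10 and 100 kb), the nearest gene alone, −log10 q of at least 5 or 10, overlap of 50% of the shorter peak, summits within 100 bp, and each library left out.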

Additional observations from a re-analysis of the deposited data

How the results depend on the processing

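None of the 10 genes had a reproducible SOX15 region under any alternative tried. Within 100 kb SOX15 replicate 3 had a peak near 2 of the genes (Tcf7 and Axin2), in place of 0. The SOX15 minus SOX2 difference in the number of the 10 genes with a peak, -5.5, ranged from -8 to -3 with single libraries left out (-3 without SOX2 replicate 2) and was -3.5 with −log10 q of at least 10, where SOX2 replicate 2 had peaks near 5 of them in place of 8. Of the 10, the number with a reproducible SOX2 region was 3 to 8 with single libraries left out; without SOX2 replicate 1, replicate 2 alone decides it, and the share over all protein-coding genes is 24.9% in place of 14.2%. This count was 2 with −log10 q of at least 10 (all genes 10.4%) and 3 under the other alternatives. The share over all genes moved while the count stayed at 3. It was 6.72% within 10 kb, 7.33% with the nearest gene alone and 22.3% within 100 kb. With the other overlap rules or −log10 q of at least 5 it was 13.7% to 14.1%. Other WNT genes with a reproducible SOX15 region numbered 2 in place of 4 within 10 kb, with the nearest gene alone, and with −log10 q of at least 10, where the shares over all genes were 1.08%, 0.749% and 1.29% in place of 2.26%. With single libraries left out they numbered 2 to 4 (2 without any one SOX15 library, with all genes at 1.68% to 1.91%). Those with a SOX2 region numbered 16 in place of 29 within 10 kb, with all genes at 6.72% in place of 14.2%. They numbered 20 with the nearest gene alone (all genes 7.33%) and 22 with −log10 q of at least 10 (10.4%). Within 100 kb they numbered 36 (22.3%), and without SOX2 replicate 1 they numbered 38 (24.9%). Under the remaining alternatives they numbered 28 to 30. The alternatives with a narrower window, a stricter threshold or the nearest gene alone admit fewer peaks to each gene. Replicates 1 and 2 share only a number between the factors; with that number as a replicate block the difference was -5.5. Depth is unknown, so how far it limits the SOX15 lists was not tested.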

Other observations

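Other genes shared the pattern of calls of Tcf7l1 and Tcf7. Besides Tcf7l1, 72 protein-coding genes (0.333% of all) had no SOX15 peak, 1 peak of SOX2 replicate 1 and 3 peaks of SOX2 replicate 2 within 50 kb. The closest by the percentile of their best fold over the SOX2 libraries were Cnot2 (summed difference 0.98 percentile points), Gja1 (1.48) and Sox2 itself (2.5), followed by the neighbours Arl14epl and Commd10, which share their best peaks (7.02 each). Besides Tcf7, 351 genes (1.62%) had its counts of 0, 0 and 0 SOX15 peaks and 1 and 2 SOX2 peaks. Its neighbour Skp1 shares the same best peaks and so differs by 0, and Stambpl1 and Acta2 (2.72 each), Sox9 (3.15) and Clcn6 (3.34) came next. The likeness is over 5 libraries and describes calls, not function.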
